A study of Ambystoma mexicanum with 49 samples.

Results

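The egg coat genes ZP1, ZP2, ZP3 and ZP4 and the oocyte growth factor genes BMP15 and GDF9 were followed through the development of the axolotl, Ambystoma mexicanum. The members were taken by gene name, and all 6 were found among the 15631 genes of the deposited tables. Poly(A) RNA was measured in 49 libraries from 17 stages, stage 1 to stage 40, with 3 libraries a stage and 2 at stages 1 and 11. Each of these libraries came from 1 whole embryo, freed of jelly and collected at 20 °C. Total RNA depleted of ribosomal RNA was measured in 2 libraries of stage 1 and 3 of stage 2. No treatment, strain, sex or genotype separates the groups in the labels, so stage and kind of library are the only factors known here. Factors that the labels do not give could follow stage or kind of library. The sources used here do not say from which embryos the total RNA came.

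ZP proteins are secreted by the growing oocyte and assemble into the coat around the egg, called the zona pellucida in mammals and the vitelline envelope in amphibians, to which sperm bind. GDF9 and BMP15 are secreted ligands of the TGF-beta family that in mammals pass from the oocyte to the follicle cells around it, where they act through BMPR2, type I receptors and SMAD proteins. An egg carries stored mRNA made before fertilization, and the length of the poly(A) tail of such an mRNA can change without new transcription. A poly(A) library captures an mRNA by its tail, while a ribosome-depleted library does not need one.

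Levels are given in TPM, the authors' measure of a gene's share of all transcripts of a library, corrected for gene length. Changes are log2 ratios of estimated counts with their standard error (SE), from 1 model of all poly(A) libraries, and a change was called when its p, adjusted over all genes tested, was under 0.05. All 6 genes passed the filter on low counts. Because a library is a whole embryo, fewer cells of a type and less RNA per cell cannot be told apart in any of these values. All values are relative to the other RNA of a library, so a change in amount per embryo was not tested.

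The genes held poly(A) RNA in every early embryo but followed different courses. ZP1, ZP3 and ZP4 were at their highest mean in stage 1 and at their lowest in stage 40. ZP2 stayed low throughout, with its highest mean of 5.57 ± 0.61 TPM (SD, n = 3) at stage 8. BMP15 and GDF9 were highest at stage 6, at 36.3 ± 5.88 TPM and 106 ± 7.29 TPM (SD, n = 3 each). By stage 12 their means were down to 0.363 and 0.680 TPM. In order of their stage means, the libraries of neighbouring stages did not overlap at 7 of 16 steps for ZP3 and 6 for GDF9. The number was 5 for ZP1, 4 for ZP4, 3 for BMP15 and 1 for ZP2. At most steps of each gene the libraries overlapped, so the order of those neighbours is not read as a result. Stages were sorted by the same values and have few libraries, so these counts are descriptions and not tests of difference. The share of such steps over all genes was not counted, so the counts are not read as particular to these genes.

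**Figure D1:**
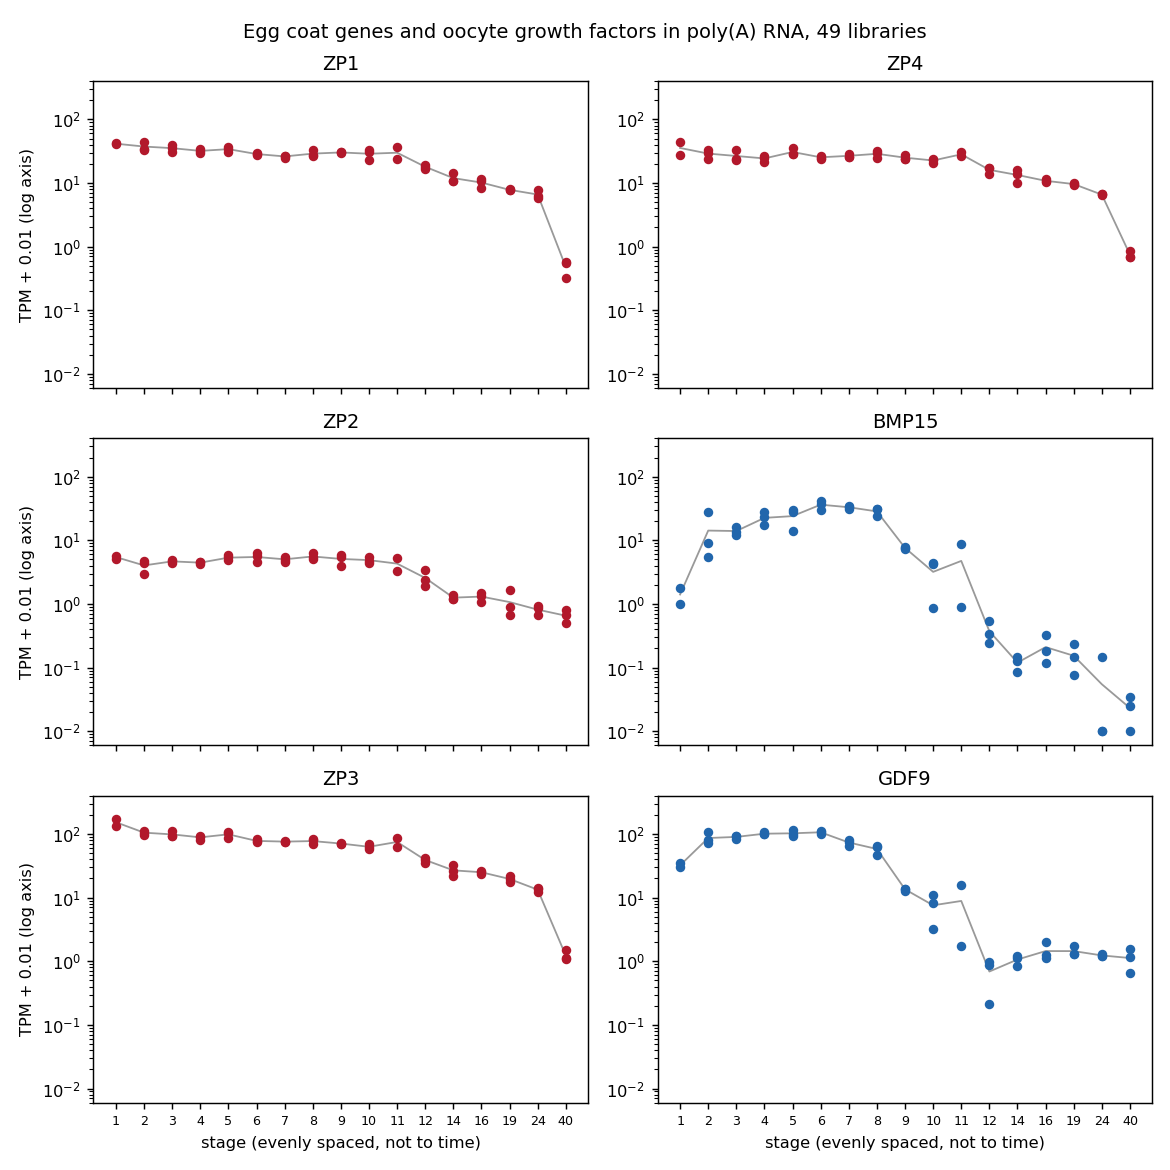
Level of each gene in every poly(A) library, as TPM + 0.01 on a log axis, against stage, with stages evenly spaced; each point is 1 embryo and the line joins stage means. The 3 abundant egg coat genes decline slowly until stage 24 and drop at stage 40, while BMP15 and GDF9 rise after stage 1 and fall between stages 8 and 12.

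ZP3, whose product binds sperm in the mouse, was the most abundant of the egg coat genes in TPM. It stood at 174 and 132 TPM in the 2 embryos of stage 1 and at 112, 105 and 97.9 TPM in those of stage 2. The stages did not overlap, and the fall was called, at a log2 change of -0.54 ± 0.15 (adjusted p = 0.00673). It was not called without the third stage 2 embryo, at -0.44 (adjusted p = 0.0623), nor when fitted on these 2 stages alone, at -0.61 (adjusted p = 0.0846). Without the first stage 1 embryo, which leaves 1 at that stage, the change was -0.31. ZP1, which cross-links the filaments of the mouse coat, was at 42.5 and 40.4 TPM at stage 1 and at 33.4, 44.3 and 34.3 TPM at stage 2, with overlapping groups. ZP4, a coat protein lost as a functional gene in the mouse, was at 43.3 and 27.7 TPM and then at 29.8, 23.6 and 33.6 TPM. ZP2, cleaved after fertilization in the mouse, was at 5.73 and 5.16 TPM and then at 4.47, 2.95 and 4.65 TPM. None of these 3 changes was called by the model, with log2 changes of -0.14 ± 0.18 for ZP1, -0.30 ± 0.18 for ZP4 and -0.44 ± 0.28 for ZP2. DESeq2's Wald test called ZP2 lower, at -0.56 (adjusted p = 0.0492). ZP4 was at -0.60 without the second stage 1 embryo and at 0.077 without the first, fits that leave 1 embryo at that stage.

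BMP15 had the least poly(A) RNA of the 6 members at stage 1 and rose by stage 2. The 2 embryos of stage 1 held 1.79 and 1.00 TPM, from 44.99 and 20 estimated counts, and the 3 of stage 2 held 9.22, 5.38 and 28.0 TPM. All embryos of stage 2 were above both of stage 1, and the third stood well above the other two. The log2 change was 3.27 ± 0.61 (adjusted p = 7.22e-05), a 9.62-fold rise, and 366 of the 14437 genes tested rose by as much or more. GDF9 rose as well, from 29.97 and 34.46 TPM to 81.4, 71.4 and 107 TPM, again without overlap. Its log2 change was 1.42 ± 0.39 (adjusted p = 0.00466), a 2.67-fold rise, and was not called without the first stage 1 embryo, at 1.33 (adjusted p = 0.0619). Of the 6 members 3 were called between these stages, 2 higher and 1 lower, where 32.7% of all genes were called, 21.6% higher and 11.1% lower. With the first stage 1 embryo left out, 1 member was called, BMP15.

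In total RNA the same step looked different for the growth factors. BMP15 stood at 39.1 and 36.0 TPM at stage 1 and at 43.0, 30.1 and 35.8 TPM at stage 2, with overlapping groups. Its log2 change was -0.09 ± 0.13 (adjusted p = 0.762), with an approximate 95% interval of -0.33 to 0.16. GDF9 was at 30.95 and 30.54 TPM and then at 42.9, 33.7 and 38.0 TPM, without overlap, and its log2 change of 0.27 ± 0.11 (adjusted p = 0.204) was not called. The egg coat genes were lower at stage 2 by log2 values between -0.29 ± 0.13 for ZP3 and -0.45 ± 0.19 for ZP1, none of them called. By edgeR's quasi-likelihood test 0 of the 6 members were called in total RNA, where 1.99% of all genes were called. An unadjusted p under 0.05 was found for 2175 of the 11419 genes tested and for 3 of the 6 members. DESeq2's Wald test called 1, ZP4, at -0.41 (adjusted p = 0.0309). Without the second stage 2 library, 2 members were called, ZP3 at -0.45 (adjusted p = 0.00574) and ZP4 at -0.54 (adjusted p = 0.00471). The share of all genes called in that run or by the Wald test was not counted.

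**Figure D2:**
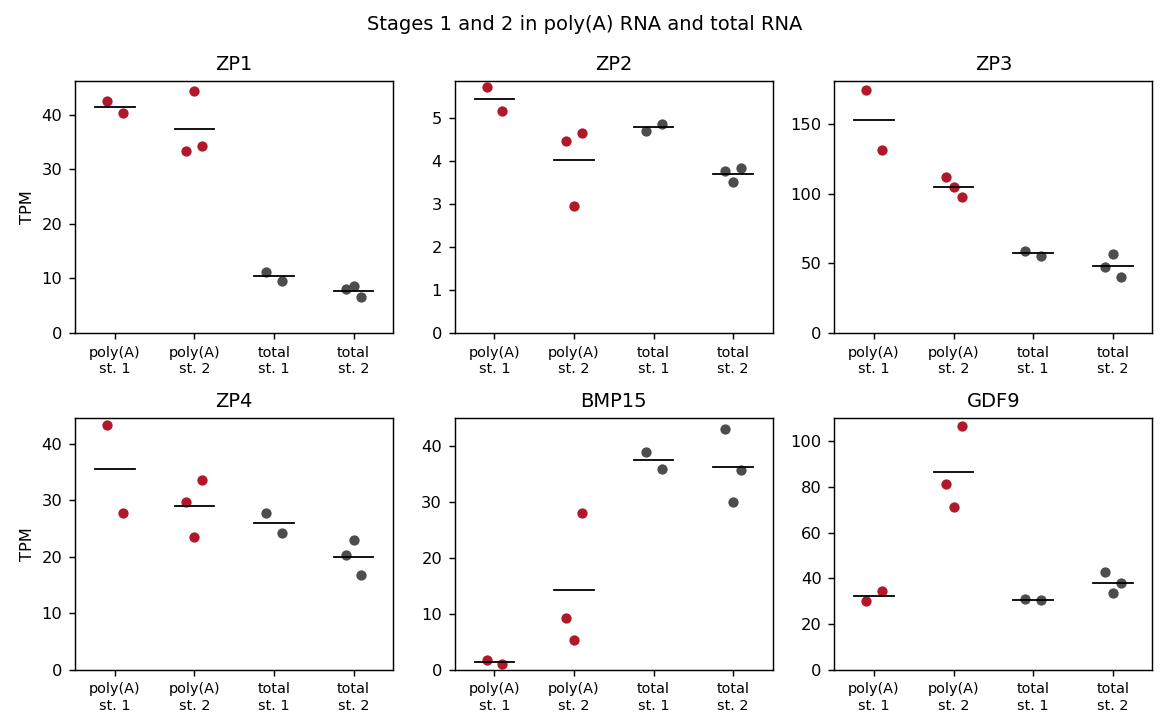
Level in TPM of each gene at stages 1 and 2 in poly(A) RNA (red) and total RNA (grey), with a linear axis from 0 that differs between genes; points are libraries and bars are means. BMP15 stands at 1.79 and 1.00 TPM in poly(A) RNA of stage 1 and at 39.1 and 36.0 TPM in total RNA of the same stage.

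The difference between both kinds of library was tested as the stage change in poly(A) RNA minus that in total RNA, in 1 model of 10 libraries. It was 3.27 ± 0.76 on the log2 scale for BMP15 (adjusted p = 0.0367) and 1.06 ± 0.23 for GDF9 (adjusted p = 0.0329). No egg coat gene was called, and their differences lay between -0.33 ± 0.25 for ZP3 and 0.23 ± 0.29 for ZP1. For the 2 called members the stage change, not the level, was higher in poly(A) RNA than in total RNA. Of all genes 8.46% were called in this test and 4.95% called higher. The BMP15 call was lost without either stage 1 poly(A) embryo or without any of the 5 total RNA libraries, and the GDF9 call without the first stage 1 poly(A) embryo or without any of those 5. Over all alternatives the difference ranged from 2.51 to 3.82 for BMP15, with adjusted p from 6.76e-05 to 0.131. For GDF9 it ranged from 0.98 to 1.22, with adjusted p from 0.000368 to 0.13.

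The ratio of mean poly(A) TPM to mean total RNA TPM sets these levels side by side, although the tables were made apart, with different kits and read lengths. BMP15 had a ratio of 0.0372 at stage 1, and 164 of 9036 genes at 5 TPM or more in total RNA had one as low or lower. At stage 2 its ratio was 0.391. GDF9 went from 1.05 to 2.26, while the median was 1.37 over those 9036 genes and 1.34 over the 9105 at 5 TPM or more in total RNA of stage 2. ZP1 had the highest ratio of the members at both stages, at 4.00 and 4.82, and ZP3 had 2.67 and 2.19. ZP4, at 1.37 and 1.45, was close to the median, and ZP2, under 5 TPM in total RNA, had 1.14 and 1.08.

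Within single poly(A) libraries the balance of the growth factors shifted. GDF9 was 16.7 and 34.4 times as abundant as BMP15 per length in the embryos of stage 1, and 3.80 to 13.3 times at stage 2. At stage 8 the ratio lay between 1.92 and 2.10. The libraries of stages 1, 2 and 8 did not overlap in this ratio. Total RNA of stage 1 had the other order, with BMP15 at 39.1 and 36.0 TPM and GDF9 at 30.95 and 30.54 TPM. At stage 2 they overlapped there, at 30.1 to 43.0 TPM and 33.7 to 42.9 TPM. The ratios above therefore hold for poly(A) RNA only.

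From stage 2 to stage 8, the cleavage stages, ZP1 and ZP3 declined and BMP15 did not pass the test. ZP3 went from a mean of 105 ± 6.95 TPM to 77.4 ± 7.68 TPM (SD, n = 3 each), without overlap, at a log2 change of -0.81 ± 0.14 (adjusted p = 1.96e-05). ZP1 fell by 0.74 on the log2 scale (SE 0.16, adjusted p = 0.00031). Both calls held in every alternative run, but the size of the change varied with the processing. It ranged from -0.95 to -0.51 for ZP3 and from -0.89 to -0.45 for ZP1. In TPM the stage 8 mean was 73.8% of the stage 2 mean for ZP3, 77.4% for ZP1, 99.2% for ZP4 and 138% for ZP2. ZP4 had a log2 change of -0.37 ± 0.16 (adjusted p = 0.0667), and ZP2 of 0.11 ± 0.25. ZP4 was called lower with DESeq2's size factors, at -0.51 (adjusted p = 0.0116), and by its Wald test, at -0.51 (adjusted p = 0.00739). It was also called without the second stage 2 embryo, at -0.49 (adjusted p = 0.0344). Over all alternatives it ranged from -0.51 to -0.08. GDF9 went from 86.4 ± 18.1 TPM to 58.1 ± 10.1 TPM (SD, n = 3 each), a called log2 change of -0.92 ± 0.33 (adjusted p = 0.0227). This call was lost without the first or the third embryo of stage 2, without the first of stage 8, and with library size as the only scaling, at adjusted p of 0.0511, 0.0591, 0.105 and 0.166. BMP15 was at 24.2, 30.6 and 30.5 TPM at stage 8, and its log2 change of 0.70 ± 0.45 (adjusted p = 0.22) was called only without the third stage 2 embryo, at 1.53 (adjusted p = 0.00833). In all 3 members were called, each lower, against 43.9% of all genes called and 18.9% called lower.

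Between stages 8 and 12, from blastula to gastrula, the members parted. BMP15 went from 24.2, 30.6 and 30.5 TPM to 0.325, 0.532 and 0.230 TPM, the latter from 15, 15 and 5 estimated counts. GDF9 went from 46.5, 64.3 and 63.6 TPM to 0.205, 0.964 and 0.872 TPM. Neither gene's groups came near each other. The log2 changes were -5.31 ± 0.59 for BMP15 (adjusted p = 5.13e-10) and -5.59 ± 0.45 for GDF9 (adjusted p = 1.57e-13), and both passed in every alternative run. No egg coat gene was called: ZP1 changed by 0.27 ± 0.16 on the log2 scale, ZP4 by 0.13 ± 0.16, ZP3 by -0.02 ± 0.14 and ZP2 by -0.16 ± 0.25. The 2 members called were lower, against 62.5% of all genes called and 31.5% called lower.

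The egg coat genes' direction in this step depends on how libraries are scaled. In TPM all 4 were lower at stage 12, ZP3 at 50.4%, ZP1 at 62.2%, ZP4 at 55.9% and ZP2 at 45.9% of their stage 8 mean, without overlap between the stages. The share of all genes lower without overlap in TPM was not counted, so this is not read as particular to them. With library size as the only scaling, which moved the median log2 change of all genes by -0.98, all 6 members were called lower, as were 56.8% of all genes, the egg coat genes at log2 changes from -0.70 for ZP1 to -1.13 for ZP2. A ratio of members within a library does not depend on that scaling. BMP15 over ZP3, in TPM, was 0.300, 0.369 and 0.445 at stage 8 and 0.00768, 0.0136 and 0.0065 at stage 12. The log2 ratio changed by -5.38 for BMP15 over ZP3 and by -5.70 for GDF9 over ZP3, without overlap. Each had p = 0.1 in a two-sided exact permutation test over libraries, the smallest that 3 against 3 can give, and 0.1 after adjustment over 4 such tests.

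**Figure D3:**
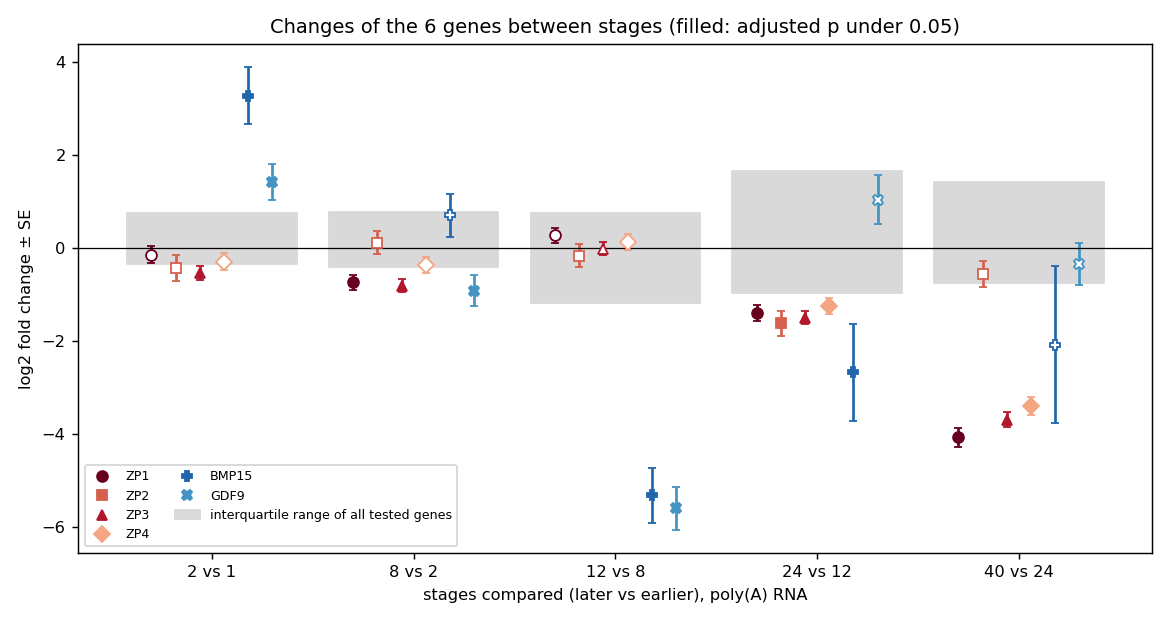
Log2 fold change with SE of each gene in 5 comparisons of a later with an earlier stage in poly(A) RNA; filled symbols passed an adjusted p of 0.05 and grey bands give the interquartile range of all tested genes. BMP15 and GDF9 lie above the band in stage 2 against 1 and far below it in stage 12 against 8, and ZP1, ZP3 and ZP4 lie below it in stage 40 against 24.

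Among neighbouring stages, the growth factors were first called lower from stage 8 to 9. GDF9 had come down before that in TPM, from 98.3 to 113 TPM at stage 6 to 65.5 to 79.8 TPM at stage 7 and 46.5 to 64.3 TPM at stage 8, without overlap at either step. Its log2 changes there were -0.57 ± 0.33 and -0.34 ± 0.33 (adjusted p = 1 each), neither called. BMP15 was at 7.96, 7.54 and 7.27 TPM at stage 9, a log2 change of -1.88 ± 0.47 (adjusted p = 0.00302). GDF9 was at 13.8, 13.9 and 12.8 TPM, a change of -2.09 ± 0.35 (adjusted p = 2.16e-05). These 2 members were the only ones called in this step, where 15.8% of all genes were called and 11.8% called lower, and both passed in every alternative run.

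Embryos of stages 10 and 11 did not form tight groups. At stage 10 BMP15 was at 0.868 TPM in the first embryo and at 4.38 and 4.30 TPM in the others, and GDF9 at 3.21 TPM and then 11.1 and 8.36 TPM. At stage 11 BMP15 was at 8.60 TPM in the embryo numbered 2 and at 0.873 TPM in the one numbered 3, and GDF9 at 16.0 and 1.76 TPM. BTG4, a maternal gene for mRNA deadenylation, was low in the same embryos, at 40.6 TPM in the first of stage 10 and 20.1 TPM in the one of stage 11 numbered 3, against 141 to 220 TPM in the other three. T, a mesoderm gene of the gastrula, was high in them, at 88.0 and 204.5 TPM, against 6.89 to 11.8 TPM. The stage 11 embryo numbered 2 had rank correlations over genes of 0.985 to 0.989 with the stage 9 libraries, of 0.973 to 0.991 with those of stage 10 and of 0.957 with its stage mate.

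From stage 11 to 12 the log2 changes were -2.86 ± 0.61 for BMP15 (adjusted p = 0.000251) and -3.03 ± 0.48 for GDF9 (adjusted p = 2.89e-06), where 37.3% of all genes were called and 21% called lower. Without the stage 11 embryo numbered 2 they were -0.79 (adjusted p = 0.548) and -1.06 (adjusted p = 0.15), and neither was called. Fitted on these 2 stages alone they had adjusted p of 0.052 and 0.0596.

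**Figure D4:**
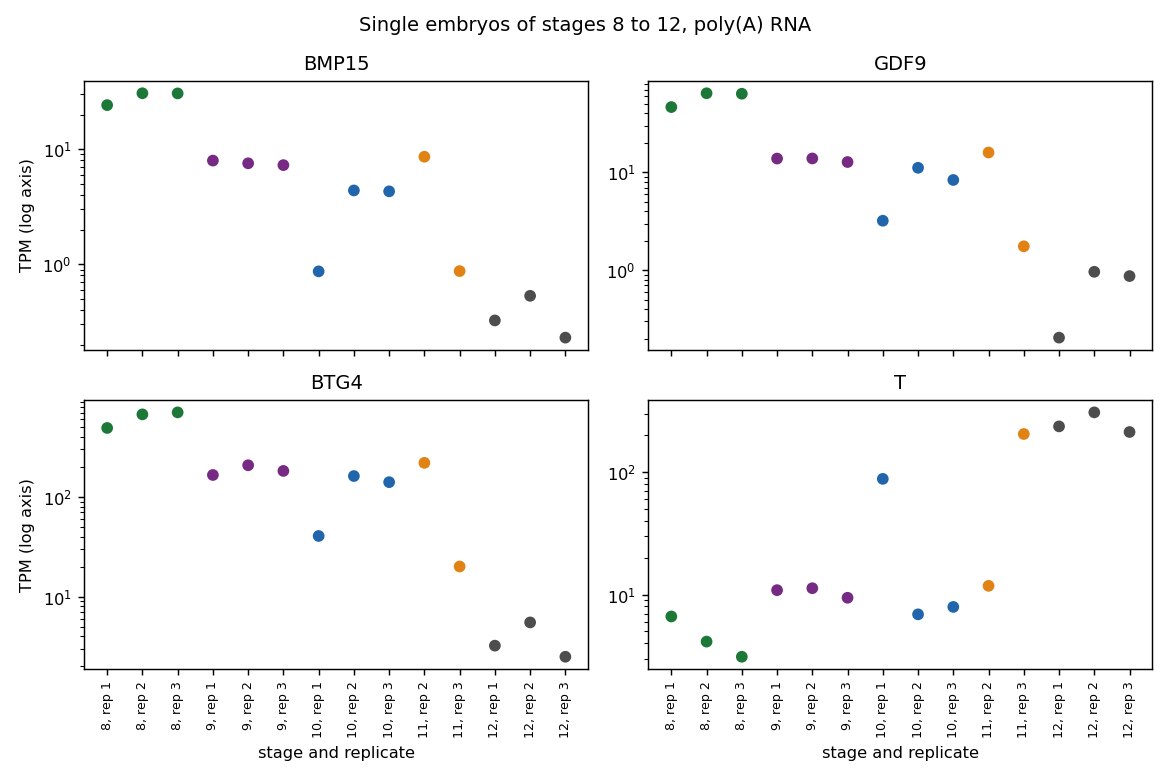
Level in TPM, on log axes that differ between genes, of BMP15, GDF9, BTG4 and T in each embryo of stages 8 to 12; each point is 1 embryo, coloured by stage. In the first embryo of stage 10 and the one of stage 11 numbered 3, BMP15, GDF9 and BTG4 are low and T is high.

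From stage 12 to stage 24, through neurulation to the tail bud, all 4 egg coat genes declined. ZP3 went from 42.3, 39.3 and 35.5 TPM to 14.0, 13.8 and 12.2 TPM, a log2 change of -1.50 ± 0.14 (adjusted p = 1.51e-11). The changes of the others were -1.40 ± 0.17 for ZP1, -1.24 ± 0.17 for ZP4 and -1.62 ± 0.27 for ZP2, with adjusted p of 2.66e-09, 3.64e-08 and 2.56e-06. None of these 4 calls was lost in any alternative run. BMP15, down to 0, 0 and 4 estimated counts at stage 24, was called at -2.67 ± 1.04 (adjusted p = 0.0219), and lost the call without the second stage 12 embryo or without either stage 24 embryo at 0. In all 5 members were called lower, where 71.2% of all genes were called and 33.9% called lower.

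GDF9 was not called lower after stage 12 in the model reported, but it rested on few counts there. Its libraries had 8 to 23 estimated counts at stage 12, 15 to 19 at stage 14 and 18 to 32 at stage 24. Its means were 0.680 ± 0.414 TPM at stage 12, 1.06 ± 0.186 TPM at stage 14 and 1.23 ± 0.042 TPM at stage 24 (SD, n = 3 each), and its log2 change from stage 12 to 24 was 1.03 ± 0.53 (adjusted p = 0.0771). That change was called higher with DESeq2's size factors, at 1.40 (adjusted p = 0.019), with DESeq2's Wald test, at 1.35 (adjusted p = 0.0056), and without the second stage 12 embryo, at 1.46 (adjusted p = 0.0381). At stage 40 GDF9 was at 1.57, 0.635 and 1.14 TPM, from 22 to 74 estimated counts, while BMP15 had 0, 1 and 1.

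Among neighbouring stages after stage 12, ZP2 was called lower from stage 12 to 14, at -0.76 ± 0.27 (adjusted p = 0.0171), where 52.3% of all genes were called and 24.9% called lower. The call was lost with DESeq2's size factors, on the 2 stages alone and without the second stage 12 embryo, at adjusted p of 0.0661, 0.0613 and 0.132. ZP3 and ZP4 were called lower from stage 19 to 24, each at -0.72, with SE of 0.14 and 0.17, where 24.1% of all genes were called and 13.1% called lower. Over all 16 pairs of neighbouring stages the members were called 13 times, and 14.9% of all tests of genes were called.

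From stage 24 to stage 40 ZP1, ZP3 and ZP4 dropped and ZP2 did not pass the test. ZP1 went from 6.21, 7.76 and 5.77 TPM to 0.555, 0.549 and 0.306 TPM, a log2 change of -4.06 ± 0.20 (adjusted p = 7.08e-19). ZP3 ended at 1.47, 1.07 and 1.12 TPM and ZP4 at 0.848, 0.679 and 0.684 TPM, with log2 changes of -3.69 ± 0.16 and -3.39 ± 0.19 (adjusted p = 1.08e-20 and 6.62e-18). As shares of all transcripts, their stage 40 means were 1.13% of the stage 1 mean for ZP1, 0.797% for ZP3 and 2.08% for ZP4. The amount of RNA per embryo is not known here, so loss of these mRNAs was not tested. The 3 members called were lower, against 68.6% of all genes called and 30.9% called lower.

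ZP2 was at 0.842, 0.923 and 0.649 TPM at stage 24 and at 0.793, 0.652 and 0.486 TPM at stage 40, with overlapping groups and a log2 change of -0.56 ± 0.28 (adjusted p = 0.0752). It was called only without the third stage 24 embryo, at -0.76 (adjusted p = 0.029). These values rest on 18 to 23 estimated counts a library at stage 24 and on 29 to 48 at stage 40. ZP2 over ZP1 within a library, in TPM, went from 0.136, 0.119 and 0.113 to 1.43, 1.19 and 1.59, and ZP2 over ZP3 from 0.0603, 0.0668 and 0.0532 to 0.540, 0.609 and 0.434. The log2 ratios rose by 3.51 and 3.13 without overlap, each at p = 0.1 in the two-sided exact permutation test, the smallest it can give here.

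Across stages, ZP1, ZP3 and ZP4 had nearly the same profile. Over 17 stage means of log2(TPM + 1), Pearson's r was 0.995 for ZP1 with ZP3, 0.992 for ZP1 with ZP4 and 0.991 for ZP3 with ZP4, and it was 0.935 for BMP15 with GDF9. ZP2 had r of 0.873 to 0.892 with the other egg coat genes and of 0.823 and 0.825 with BMP15 and GDF9. These are descriptions, since all genes share the libraries and the order of stages.

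Of 11286 genes at 10 TPM or more in some stage, those whose stage means were most like ZP1 were TCTEX1D2, TTC29 and DBR1, at r of 0.995, 0.994 and 0.993. TTC29 and DBR1 also led for ZP4, at 0.989 and 0.988, followed by KIF22 at 0.987. NF2, CDC20 and AKIRIN2 led for ZP3, each at 0.991 or 0.992, and CLCN7, CEP78 and ARHGAP5 for ZP2, at 0.993 or 0.994. SIGIRR, ZNF470 and IL17RC were most like BMP15, at 0.995, 0.993 and 0.991, and FBXO46, C16orf46 and UNKL most like GDF9, at 0.994, 0.993 and 0.993. IL17RC went from 5.03 TPM at stage 1 to 58.8 TPM at stage 2 and from 124 TPM at stage 8 to 1.21 TPM at stage 12. Over the 49 single libraries r was between 0.954 and 0.992 for these pairs. Ranked by Spearman's rho, 0 of the 3 genes were shared for each member, so the choice of genes depends on the measure.

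Most receptors and SMADs that carry GDF9 and BMP15 signals in mammals had poly(A) RNA from stage 1. Of 24 listed genes, which include extracellular inhibitors of the family, 17 were at 1 TPM or more in both stage 1 embryos, while 5 were under 1 TPM in each embryo of stages 1 and 2. Among these was SMAD7, an inhibitory SMAD, at 0 and 0.301 TPM at stage 1. TGFBR2 was at 0.046 and 0.404 TPM at stage 1 but reached 1.01 TPM in an embryo of stage 2, so it was not among them. BMPR2, through which both ligands act in mammals, had a mean of 7.15 TPM at stage 1 and 17.8 TPM at stage 2. Its log2 change was 1.28 ± 0.32 (adjusted p = 0.00205). The mean of BMPR2 was 31.8 TPM at stage 8 and 0.932 TPM at stage 12. Of the list 23 genes were tested, and from stage 1 to 2 they rose in 9 cases and fell in 2, where 21.6% of all genes were called higher and 11.1% lower, with a median log2 change of 0.58 against 0.02 over all genes. BMPR1A, a type I receptor, rose from 56.1 ± 0.91 TPM (SD, n = 2) to 111 ± 24.3 TPM (SD, n = 3), at 0.98 ± 0.21 on the log2 scale (adjusted p = 0.000437). SMAD3, which passes on GDF9 signals, rose by 0.85 ± 0.15 (adjusted p = 3.16e-05). From stage 2 to 8 the list rose in 7 cases and fell in 4, against 24.9% of all genes called higher and 18.9% lower. From stage 8 to 12, when both ligands fell, 11 fell and 4 rose, with a median of -0.63, against 31.5% lower and 31% higher over all genes. SMAD4, the shared partner of the signalling SMADs, fell by 3.62 on the log2 scale (SE 0.26, adjusted p = 7.61e-15), and SMAD1 by 2.77 (SE 0.16, adjusted p = 3.38e-17). From stage 12 to 24, 14 rose and 5 fell, against 37.3% higher and 33.9% lower. In the last step, to stage 40, 10 of the list fell and 6 rose, against 30.9% lower and 37.7% higher.

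Of 17 other ligands of the family tested, 1 rose and 1 fell from stage 1 to 2, where 21.6% of all genes were called higher and 11.1% lower. Of these ligands 10 were under 1 TPM in each embryo of both stages, and BMP6 and MSTN were at 0 in each. Their changes were not tested against those of BMP15 and GDF9. The one that rose was BMP2, a ligand of dorsoventral patterning, at 1.91 ± 0.55 (adjusted p = 0.00657), and the one that fell was TGFB2, at -1.19 ± 0.43 (adjusted p = 0.03). From stage 8 to 12, with 31% of all genes called higher and 31.5% lower, 4 rose and 4 fell, among them BMP2 higher at 4.35 ± 0.47 and GDF3 lower at -1.61 ± 0.19 (adjusted p = 2.88e-10 and 2.91e-09).

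Transcription regulators of the oocyte, of which 13 were tested, rose in 3 cases and fell in 1 from stage 1 to 2, against 21.6% and 11.1% of all genes, and rose in 7 and fell in 4 from stage 8 to 12, against 31% and 31.5%. The list also holds genes low in early embryos, such as OTX2. From stage 8 to 12 OTX2 rose by 8.98 ± 0.55 (adjusted p = 1.2e-16), from a mean of 0.224 to 65.4 TPM. From stage 12 to 24, 9 of the tested regulators fell and 1 rose, against 33.9% lower and 37.3% higher over all genes. From stage 24 to 40, 10 fell and 1 rose, against 30.9% lower and 37.7% higher. POU5F1 had the smallest adjusted p of the list from stage 12 to 24, at -9.42 ± 0.53 (adjusted p = 8.79e-18). FIGLA, which activates the ZP genes in the mouse oocyte, fell from 17.9 ± 3.36 TPM to 1.59 ± 0.73 TPM (SD, n = 3 each), at -3.48 ± 0.30 on the log2 scale (adjusted p = 1.19e-12). Of 17 tested genes for egg coat processing and fertilization, 2 rose and 2 fell from stage 1 to 2, against 21.6% and 11.1% of all genes. The rise of ASTL, the protease that cleaves ZP2 in the mouse, was 1.35 ± 0.43 (adjusted p = 0.0141), from 1.93 to 5.03 TPM. Most of its RNA was seen later, with means of 14.3 TPM at stage 8, 138 TPM at stage 24 and 21.1 TPM at stage 40. TECTA, a protein of the inner ear with a ZP domain, fell by 0.99 ± 0.26 from stage 1 to 2 (adjusted p = 0.00341). From stage 24 to 40, 10 of the 17 rose and 2 fell, against 37.7% of all genes called higher and 30.9% lower. Those that fell were ASTL, at -2.97 ± 0.37, and FURIN, at -1.10 ± 0.16 (adjusted p = 1.0e-08 and 1.3e-07). The 10 include TECTA, so this count is not one of egg coat genes alone. UMOD and ZPLD1, which also encode ZP domain proteins, rose by 4.15 ± 0.15 and 6.91 ± 0.68 on the log2 scale (adjusted p = 2.74e-23 and 3.79e-11), in the step in which ZP1, ZP3 and ZP4 fell.

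Of 27 tested genes of the egg and early embryo, 11 fell and 1 rose from stage 1 to 2, where 11.1% of all genes were called lower and 21.6% higher. From stage 8 to 12, 11 fell and 11 rose, against 31.5% of all genes lower and 31% higher. In the step from stage 12 to 24, 19 fell and 1 rose, against 33.9% lower and 37.3% higher. Between stages 24 and 40, 21 fell and 1 rose, against 30.9% of all genes lower and 37.7% higher. CPEB1, a protein that controls tail length of stored mRNAs, had the smallest adjusted p of this list from stage 8 to 12 and fell by 4.86 on the log2 scale (SE 0.32, adjusted p = 8.07e-16).

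Genes for poly(A) tails and cytoplasmic polyadenylation, of which 26 were tested and 1 is CPEB1, fell in 8 cases and rose in 2 from stage 1 to 2, against 11.1% and 21.6% of all genes. From stage 8 to 12 the list was split, with 10 lower and 11 higher, against 31.5% and 31% of all genes. TOB2, which brings a deadenylase to mRNAs, rose by 6.76 ± 0.33 on the log2 scale in this step (adjusted p = 1.28e-18), and CNOT7, a deadenylase, fell by 4.11 (SE 0.27, adjusted p = 7.26e-16).

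Signal of other cells and of later stages was measured beside these results. Of 10 markers of the follicle cells that surround the oocyte, 6 were in the table, and in poly(A) RNA of stages 1 and 2 FOXL2 and LHCGR were at 0 in each library. KITLG was at 22.8 and 29.2 TPM at stage 1 and at 39.1 to 66.0 TPM at stage 2, without overlap. Its log2 change of 0.92 ± 0.20 (adjusted p = 0.000339) was called higher, as were those of BMP15 and GDF9. In total RNA it was 0.29 ± 0.09 (adjusted p = 0.142). The summed level of the other 5 in poly(A) RNA was 0.388 and 1.01 TPM at stage 1 and 0.159 to 0.838 TPM at stage 2. Their sum in total RNA was 0.384 and 3.25 TPM at stage 1 and 0.217 to 0.867 TPM at stage 2. At stage 1, 0 of the 6 markers were at 0 in both total RNA libraries. The 8 markers of late embryos, among them globins and muscle genes, summed to 220 and 372 TPM in poly(A) RNA at stage 1, and to 29.4 to 112 TPM at stage 2. This is 0.72% and 1.22% of their stage 40 mean at stage 1. Of the 8 markers 6 were called lower from stage 1 to 2, against 11.1% of all genes. The members were at 1.57 TPM or less in each stage 40 library. Total RNA libraries held 102 and 136 TPM of the late markers at stage 1 and 21.2 to 30.9 TPM at stage 2. There 4 of the 7 late markers tested were called lower, where 1.99% of all genes were called in either direction. The part of this signal in the change from stage 1 to 2 was not tested.

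The depth was 12.0 to 44.9 M estimated counts for a poly(A) library and 17.4 to 25.5 M for one of total RNA. Counts behind a given TPM differ by the gene length used in the authors' scaling. Per TPM, ZP4 had 8.61 times as many as ZP1, ZP3 3.43 times, ZP2 1.22 times, BMP15 1.12 times and GDF9 0.951 times. Those lengths were not checked here, and the order of the genes by TPM depends on them. In the 2 embryos of stage 1, ZP3 rested on 13351 and 8029 estimated counts and ZP4 on 8316 and 4233. In total RNA of stage 1, ZP4 had more counts than ZP3, at 5142 and 4415 against 4370 and 4038, although ZP3 was higher in TPM.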

How the data were processed

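RNA came from single axolotl embryos, per the labels' protocols. Poly(A) libraries gave paired reads of 101 bases and ribosome-depleted total RNA libraries single reads of 65 bases. The authors deposited estimated counts per gene, not normalized between libraries, and TPM, their own scaling for library total and gene length. The submitters' processing notes list Bowtie 0.12.1 and RSEM 1.1.6 without their roles, and the reference is not named in the sources at hand. Of the 6 members 3, and of 15631 genes 11354, have their symbol in the RefSeq table of assembly UKY_AmexF1_1, which was used for names only. Columns outside the labelled samples numbered 0. Libraries of 1 stage and kind were compared in 51 pairs, with a chi-square of at least 5.71 times its degrees of freedom, and none was counted as a repeat.

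Changes were tested on the rounded counts in R 4.3.3 with edgeR 4.0.16 and limma 3.58.1, by the quasi-likelihood F test with TMM scaling, filterByExpr by stage and stage as a factor. Of the genes 14437 were tested in poly(A) RNA, 11419 in total RNA and 11881 in the joint model of both kinds. P-values were adjusted by Benjamini-Hochberg over all genes tested within a comparison, with a threshold of 0.05. The SE is the log2 change over the square root of F. Alternatives were DESeq2 1.42.0 size factors and its Wald test, library size as the only scaling, no filter, the compared stages alone, a block for the replicate number, and fits that leave out 1 library, for which poly(A) dispersions came from edgeR's quicker trend estimator. The fit was tested on simulated data. Likeness of stage means used log2(TPM + 1), and 8 further gene lists were counted. From each list the text names only genes among the 2 of that list called with the smallest adjusted p in each of 5 main comparisons. Exceptions are markers and genes named for low early levels, and BTG4, T and BMPR2, all chosen after their values were seen. Members and lists were chosen with earlier results of these data known. Total RNA libraries are replicates of unknown origin, so their spread may be technical. Sequences were not used here.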

Additional observations from a re-analysis of the deposited data

Results flagged for a closer look

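The change from stage 1 to stage 2 differed between poly(A) and total RNA for 2 members, by a test of the difference itself. For BMP15 the log2 change in poly(A) RNA minus that in total RNA was 3.27 ± 0.76 (edgeR, adjusted p = 0.0367), with 3 of 3 poly(A) embryos of stage 2 above both of stage 1. For GDF9 it was 1.06 ± 0.23 (edgeR, adjusted p = 0.0329), again with 3 of 3 embryos of stage 2 above both of stage 1. GDF9 had the same order in total RNA, at 33.7 to 42.9 TPM against 30.54 and 30.95 TPM. That order therefore does not separate the kinds of library. Both calls were lost when any of the 5 total RNA libraries was left out.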

How the results depend on the processing

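The number of members called moved by more than 1.5 times in 4 comparisons. The share of all genes called was not set beside it in every alternative run, so these numbers are not read as results about the members. From stage 1 to 2 in poly(A) RNA it went from 3 to 1 without the first stage 1 embryo, and from 1 to 4 over libraries left out. From stage 8 to 12 it went from 2 to 6 with library size as the only scaling, and stayed at 2 over libraries left out. In total RNA it went from 0 to 1 by DESeq2's Wald test, and from 0 to 2 over libraries left out. For poly(A) minus total RNA it ranged from 0 to 2. It ranged from 2 to 4 for stage 8 against 2, from 4 to 5 for 24 against 12 and from 3 to 4 for 40 against 24, and neighbouring stages gave 11 to 14 calls beside 13.

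Sign changed in 20 values, all of changes that were not called in the model reported. From stage 1 to 2 ZP4 was at 0.077 without the first stage 1 embryo, the other end of its range over libraries left out being -0.60. From stage 2 to 8 ZP2 was at -0.031 with DESeq2's size factors, at -0.035 by its Wald test, and at -0.067 to 0.25 over embryos left out, below 0 without the second of stage 2. From stage 8 to 12, with library size as the only scaling, ZP1 was at -0.70 and ZP4 at -0.86, both called. In that step ZP2 was at -0.39 to 0.0031 over embryos left out, above 0 without the third of stage 12. ZP3 was at 0.0279 with DESeq2's size factors, at 0.0280 by its Wald test, at 0.047 without the third stage 12 embryo and at 0.038 without the second of stage 8, and as low as -0.12 over embryos left out. From stage 24 to 40 BMP15 was at 2.25 without the third stage 24 embryo, which leaves that stage at 0 counts, and at -2.63 at the other end, and GDF9 at 0.064 with library size alone. BMP15 in total RNA ranged from -0.20 to 0.013, above 0 without the second stage 2 library. In poly(A) minus total RNA, ZP2 was at 0.026 and 0.11 without the first stage 1 and the second stage 2 poly(A) embryo. ZP4 was there at -0.066 with library size alone, at -0.21 without the second stage 1 poly(A) embryo, and at -0.063 and -0.082 without the first stage 1 and the third stage 2 total RNA library. The causes were not tested.

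With the replicate number as a block, the members called were 3, 3, 2, 5 and 3 in the 5 main comparisons and 13 among neighbouring stages, as without it. Deviations of samples with the same number correlated at -0.085 to 0.088 in the 5 main comparisons, which gives no sign that the numbers pair the embryos. Whether a number marks a shared origin was not tested further. For total RNA and the joint model no paired analysis was possible because its columns carry no number tied to the labels. DESeq2's size factors moved the median log2 change of all genes by -0.12 from stage 1 to 2, by -0.14 from 2 to 8 and by 0.37 from 12 to 24. Library size alone moved it by 0.29 from 2 to 8, -0.98 from 8 to 12 and 0.42 from 24 to 40. The share of called genes that were higher moved with it. With library size alone it was 80.3% against 56.8% by TMM from stage 2 to 8, 14.4% against 49.6% from 8 to 12, 71.1% against 55.0% from 24 to 40, 88.4% against 72.7% in total RNA and 32.3% against 58.5% for poly(A) minus total RNA. With DESeq2's size factors it was 53.6% against 65.9% from stage 1 to 2, 45.9% from 2 to 8, 63.7% against 52.4% from 12 to 24 and 69.1% for poly(A) minus total RNA. BMP15 from stage 12 on rests on 0 to 15 counts a library and GDF9 on 8 to 74, so their late changes are limited by depth.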
